A study of Mus musculus with 8 samples.

Results

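The genes described here mark the stem cells at the base of the intestinal crypt or are turned on by WNT signalling. A list of 10 genes was set (Lgr5, Axin2, Ascl2, Smoc2, Rnf43, Znrf3, Lrig1, Sox9, Nkd1 and Notum), and a row of the array table was taken as a member where its single gene symbol in the platform annotation was on the list. Of the 10, 9 had a row, 1 row each, among 19505 genes with a symbol, and Rnf43 was not analysed here. Affymetrix arrays read the RNA of the epithelial cells of the colon in C57BL/6J mice, with 8 arrays in 4 groups of 2. The groups were SMS2 knockout (KO) mice given dextran sulfate sodium at 3.5% for 2 days (DSS, which damages the lining of the colon), KO mice left untreated, wild-type (WT) mice given the same DSS, and WT mice left untreated. SMS2, gene symbol Sgms2, makes sphingomyelin from ceramide. The labels call the 2 arrays of a group biological replicates. The labels do not say how the knockout was made, how old or of which sex the mice were, or if cells were pooled between mice, so the p-values speak only of the spread among these 8 samples.

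In the crypt, WNT ligands bind Frizzled receptors with the co-receptors Lrp5 and Lrp6, which keeps beta-catenin from being destroyed and lets it switch on target genes together with TCF factors. Lgr5 is both a target and a receptor of the pathway: it binds R-spondins, which hold back the ubiquitin ligases Znrf3 and Rnf43 that remove Frizzled from the cell surface. Axin2, Nkd1, Notum, Znrf3 and Rnf43 are targets that damp the signal. Ascl2 and Smoc2 mark crypt base stem cells, Lrig1 restrains growth factor receptors in stem and progenitor cells, and Sox9 is a transcription factor of the lower crypt.

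Promoter sequence was available from RefSeq (GRCm38.p6) for 4 of the 9 genes, Axin2, Ascl2, Nkd1 and Lrig1. The 250 bases before the start of 3 of them are shown, chosen by their signals with DSS. Axin2 and Ascl2 were lower on every DSS array than on any untreated array, while Nkd1, another WNT target, was not. Ascl2 was not above background on any array, so for it this gives only the order of background signals. The stretches are chr11:108920099-108920348 on the plus strand, chr7:142969265-142969514 on the minus strand and chr8:88527383-88527632 on the plus strand, each written 5′ to 3′.
Axin2: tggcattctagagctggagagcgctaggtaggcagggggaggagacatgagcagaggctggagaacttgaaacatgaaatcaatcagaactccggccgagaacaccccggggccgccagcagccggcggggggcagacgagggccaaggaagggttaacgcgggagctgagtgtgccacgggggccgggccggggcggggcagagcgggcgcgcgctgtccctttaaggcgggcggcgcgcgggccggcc
Ascl2: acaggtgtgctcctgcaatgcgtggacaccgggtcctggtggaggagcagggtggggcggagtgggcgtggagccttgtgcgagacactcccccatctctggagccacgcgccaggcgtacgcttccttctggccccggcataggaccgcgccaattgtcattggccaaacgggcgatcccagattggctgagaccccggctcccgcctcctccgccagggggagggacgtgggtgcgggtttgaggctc
Nkd1: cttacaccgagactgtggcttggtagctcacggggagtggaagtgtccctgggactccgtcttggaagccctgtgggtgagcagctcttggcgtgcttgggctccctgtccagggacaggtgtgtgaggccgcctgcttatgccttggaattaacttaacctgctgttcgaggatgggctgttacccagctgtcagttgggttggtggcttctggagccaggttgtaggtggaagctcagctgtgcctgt
The motifs CTTTGAA or CTTTGAT and, with another sixth letter, CTTTGTA or CTTTGTT, which TCF factors can bind, were searched on both strands and would have been put in capitals. No match lay in the 250 bases of these 3 genes or of Lrig1, and 14.8% of all 32851 promoters in that table held 1 or more in the same window. Bases G and C made up 69.2% of the Axin2 stretch, 67.6% of that of Ascl2, 58.4% of that of Nkd1 and 71.6% of that of Lrig1.

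The signals are log2 values as deposited. A gene counted as above background on an array where its signal passed the 75th percentile of the 5222 negative controls, which lay at 6.00 to 6.24. All 14 pan-epithelial marker genes were above it in every group, and their mean per array ran from 14.99 to 15.34. Sgms2 had signals of 7.35 and 6.47 in KO with DSS and 7.30 and 7.33 in untreated KO. It reached 11.27 and 10.90 in DSS-treated WT and 10.79 and 10.76 in untreated WT, so each library matched its labelled genotype. The DSS arrays also differed from the untreated ones in transcripts that epithelial cells do not make. The mean of 9 fibroblast genes was 12.19 and 11.37 in KO with DSS and 10.23 and 9.83 in untreated KO. It was 11.40 and 11.96 in DSS-treated WT and 8.32 and 8.67 in untreated WT. Smooth muscle genes differed more by genotype. The mean of 8 of them was 14.29 and 12.19 in KO with DSS and 13.13 and 13.33 in untreated KO. In WT it was 12.30 and 11.83 with DSS and 10.75 and 11.79 untreated. The Y-linked gene Eif2s3y was at 10.19 to 11.44 on the 4 DSS arrays and at 2.81 to 3.17 on the 4 untreated arrays, so DSS and presence of Y-linked transcripts cannot be told apart. Exocrine pancreas genes stood out in 1 array, WT with DSS replicate 1, where 6 of them averaged 12.76, and to a lesser degree in KO with DSS replicate 1 (8.29), against 6.02 to 6.59 in the other arrays. In bulk RNA, fewer cells of a type and less RNA per cell cannot be told apart.

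**Figure D1:**
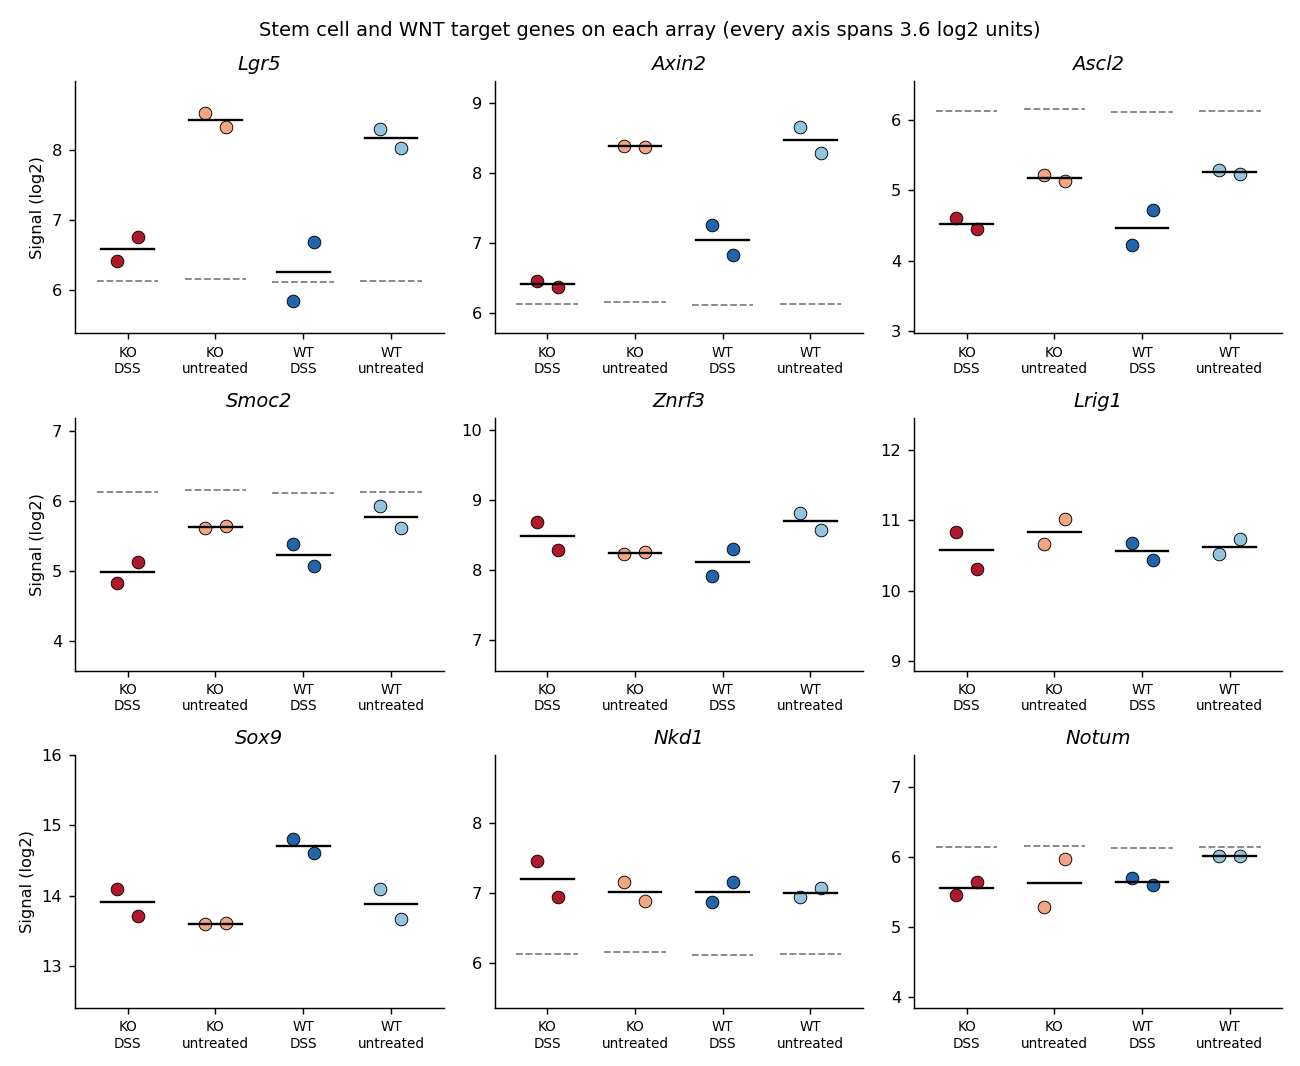
Signal (log2) of each of the 9 genes on every array, with 1 point per array, replicate 1 left of replicate 2, a black bar at the group mean and a dashed grey line at the mean background of the group. Lgr5, Axin2, Ascl2 and Smoc2 lie lower on all 4 DSS arrays than on all 4 untreated arrays, and Ascl2, Smoc2 and Notum lie under the background throughout.

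Lgr5 and Axin2 were lower after DSS in both genotypes, and no other gene of the set passed the test. A gene passed at an adjusted p under 0.05 by limma over the 13003 genes kept after the 33.3% of genes with the lowest mean were left out. In KO 2 of the 8 genes kept were lower and none higher, where 0.392% of all genes tested were lower and 0.538% higher. The WT comparison likewise called 2 of 8 lower and none higher, where 1.12% of all genes tested were lower and 2.91% higher. Averaged over the genotypes, 2 of 8 were lower and none higher, where 2.05% of all genes were lower and 3.47% higher. Arrays of the DSS and untreated groups did not overlap for 5 of 8 genes in KO, 3 lower (Lgr5, Axin2 and Smoc2) and 2 higher (Znrf3 and Sox9), where 22.0% of all genes were lower and 16.8% higher in this way. In WT 5 were lower without overlap (Lgr5, Axin2, Smoc2, Znrf3 and Notum) and 1 higher (Sox9), where 24.1% of all genes were lower and 20.3% higher. Smoc2 and Notum were not above background on any array, so for them these counts give only the order of background signals.

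Lgr5, the R-spondin receptor and stem cell marker, had signals of 6.42 and 6.76 in KO with DSS, against 8.53 and 8.34 in untreated KO. In WT the signals were 5.85 and 6.69 with DSS, against 8.31 and 8.03 untreated. The 4 DSS arrays were all lower than the 4 untreated arrays, and WT with DSS replicate 1 was not above background. Lgr5 was 3.59-fold lower with DSS in KO, a log2 difference of -1.84 ± 0.29 (SE, adjusted p = 0.0154). In WT it was 3.73-fold lower, with a log2 difference of -1.90 ± 0.29 (adjusted p = 0.00359). Averaged over both genotypes the log2 difference was -1.87 ± 0.21 (adjusted p = 0.000283). The KO call was lost without untreated KO replicate 1 (adjusted p = 0.12), untreated KO replicate 2 (adjusted p = 0.111) or KO with DSS replicate 1 (adjusted p = 0.0982), and in a fit of these 4 arrays alone (adjusted p = 0.0584), while the log2 difference stayed between -2.01 and -1.67 over all settings. Without untreated WT replicate 1 the WT value was -1.76 (adjusted p = 0.0502).

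Axin2, the scaffold of the beta-catenin destruction complex that WNT signalling itself induces, had signals of 6.46 and 6.37 in KO with DSS, against 8.38 and 8.38 in untreated KO. The WT signals were 7.26 and 6.84 with DSS, against 8.66 and 8.29 untreated. Neither genotype showed overlap between DSS and untreated arrays, and all 8 arrays were above background. Axin2 was 3.91-fold lower with DSS in KO, a log2 difference of -1.97 ± 0.24 (adjusted p = 0.00488), and 2.68-fold lower in WT, a log2 difference of -1.42 ± 0.24 (adjusted p = 0.00646). The average over both genotypes was -1.69 ± 0.17 (adjusted p = 0.000164). Without untreated WT replicate 1 or WT with DSS replicate 2 the WT value no longer passed (adjusted p = 0.0943 and 0.0587), and without untreated KO replicate 2 the KO value did not (adjusted p = 0.0534). Averaged over the genotypes, Axin2 and Lgr5 passed under every setting run, with each array left out as well.

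Both genes were lower by a similar size when each array was centred on its mean of the pan-epithelial list. On that scale the log2 difference averaged over genotypes was -1.74 ± 0.24 for Lgr5 (adjusted p = 0.000877) and -1.57 ± 0.17 for Axin2 (adjusted p = 0.000154). Leaving out both arrays that held pancreatic transcripts left each DSS group with a single array, so only effect sizes are given. With that setting included, the log2 difference averaged over genotypes stayed between -2.08 and -1.58 for Lgr5 over all settings. For Axin2 it stayed between -1.82 and -1.57. The fibroblast markers moved with DSS as given above, and their part in the Lgr5 and Axin2 results was not tested. The Y-linked difference splits the arrays exactly as DSS does, so its part in these results cannot be told apart from that of DSS.

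Ascl2, a transcription factor of crypt base stem cells, had signals of 4.61 and 4.45 in KO with DSS and 5.22 and 5.14 in untreated KO, with 4.22 and 4.71 in WT with DSS and 5.30 and 5.24 in untreated WT. None of these was above background, so no fold is given, and with a mean of 4.86 it fell below the limit of 5.15 for testing. The DSS arrays were lower than the untreated arrays in each genotype without overlap. When no gene was left out, Ascl2 passed averaged over genotypes (adjusted p = 0.0304) and in neither genotype alone (adjusted p = 0.402 in KO and 0.117 in WT).

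Smoc2, which codes for a secreted matrix protein found in stem cells and also in fibroblasts, ordered the arrays in the same way. Its signals were 4.84 and 5.14 in KO with DSS and 5.61 and 5.64 in untreated KO, and 5.38 and 5.07 in WT with DSS and 5.93 and 5.62 in untreated WT. No array was above background, and its mean lay just inside the limit for testing. It did not pass in KO (adjusted p = 0.374), in WT (adjusted p = 0.302) or averaged over genotypes (adjusted p = 0.0707). The average passed with the array medians set equal (adjusted p = 0.0429) and without KO with DSS replicate 2 (adjusted p = 0.0469). Counting Lgr5, Axin2 and Smoc2, 3 of the 8 genes tested had all 4 DSS arrays lower than all 4 untreated arrays, as did 5.67% of all genes tested, and no gene of the set had them all higher, where 4.76% of all genes did.

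The other negative regulators with a row, Znrf3, Nkd1 and Notum, did not pass the test. Znrf3, the ligase that clears Frizzled, had signals of 8.69 and 8.28 in KO with DSS, against 8.22 and 8.26 in untreated KO. In WT its signals were 7.91 and 8.30 with DSS, against 8.82 and 8.57 untreated. The DSS arrays were thus all higher than the untreated ones in KO and all lower in WT. The log2 difference was 0.24 ± 0.25 in KO (adjusted p = 0.844) and -0.58 ± 0.25 in WT (adjusted p = 0.284), and neither passed.

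Nkd1, which binds Dishevelled and dampens the signal, stayed between 6.87 and 7.45 on all 8 arrays, with overlap between every pair of groups. Its DSS difference averaged over genotypes was 0.10 ± 0.18, with a 95% interval of -0.30 to 0.49 on the log2 scale (adjusted p = 0.851). Notum, an enzyme that removes the lipid from WNT ligands, was not above background on any array. Its signals were 5.46 and 5.64 in KO with DSS and 5.29 and 5.97 in untreated KO, and 5.70 and 5.59 in WT with DSS and 6.01 and 6.01 in untreated WT.

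Lrig1 and Sox9, the markers of stem and progenitor cells, gave no call in these fits. Lrig1 ranged from 10.30 to 11.02 over the 8 arrays, and its DSS difference averaged over genotypes was -0.16 ± 0.18, with a 95% interval of -0.57 to 0.24 (adjusted p = 0.73). Sox9 had signals of 14.10 and 13.71 in KO with DSS, against 13.59 and 13.61 in untreated KO. In WT it had 14.81 and 14.60 with DSS, against 14.10 and 13.66 untreated. The DSS arrays were higher in both genotypes without overlap inside a genotype. The log2 difference was 0.30 ± 0.25 in KO (adjusted p = 0.797), 0.83 ± 0.25 in WT (adjusted p = 0.106) and 0.56 ± 0.18 averaged over genotypes (adjusted p = 0.1), none of which passed. Centred on the pan-epithelial list, which moved the median of all genes by 0.16 in WT and 0.13 in the average, Sox9 passed in WT (0.98, adjusted p = 0.0467) and in the average (0.69, adjusted p = 0.039).

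**Figure D2:**
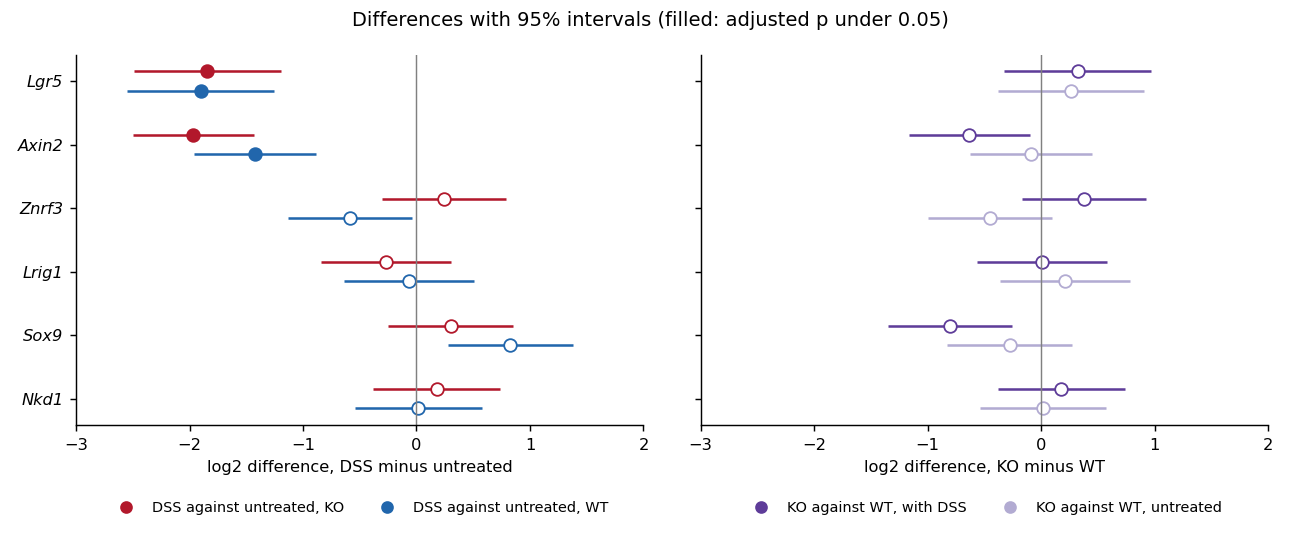
Log2 differences with 95% intervals from limma for 6 genes. DSS minus untreated is on the left (KO in red above WT in blue) and KO minus WT on the right (with DSS above untreated). The genes were above background on every array, except Lgr5 on WT with DSS replicate 1. Filled points have an adjusted p under 0.05, and only Lgr5 and Axin2 in the DSS comparisons are filled.

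Loss of SMS2 did not change any gene of the set past the threshold. Without DSS, 0 of 8 genes passed between KO and WT, where 0.392% of all genes did, and 0 of 8 had an unadjusted p under 0.05, where 6.32% of all genes had one. With DSS, 0 of 8 passed, where 0.354% of all genes did, and 2 of 8 had an unadjusted p under 0.05, where 10.2% of all genes had one. These 2 were Axin2 and Sox9, the only genes of the set whose KO arrays with DSS were lower than the WT arrays with DSS without overlap, where 18.8% of all genes were lower and 16.1% higher in this way. Untreated, 3 of 8 were lower in KO without overlap (Znrf3, Sox9 and Notum, the last not above background) and 1 higher (Lgr5). Of all genes, 20.6% were lower and 17.5% higher in this way. Axin2 was lower in KO with DSS than in WT with DSS on both arrays, with a log2 difference of -0.63 ± 0.24 (adjusted p = 0.428). Sox9 was likewise lower on both KO arrays, by a log2 difference of -0.80 ± 0.25 (adjusted p = 0.314). Without DSS the differences between KO and WT were -0.09 ± 0.24 for Axin2 (95% interval -0.62 to 0.45, adjusted p = 0.999) and -0.28 ± 0.25 for Sox9 (adjusted p = 0.999). Non-epithelial markers were also higher in untreated KO. The median of KO minus WT was 2.05 for 8 smooth muscle genes (none passed) and 1.60 for 9 fibroblast genes (3 passed). With DSS it was 1.16 and 0.15, and none passed. The part of these markers in the KO against WT and interaction results was not tested.

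For Lgr5 the KO against WT difference was 0.32 ± 0.29 with DSS (95% interval -0.33 to 0.97, adjusted p = 0.741) and 0.26 ± 0.29 without (95% interval -0.38 to 0.91, adjusted p = 0.999), and the value with DSS turned to -0.10 without WT with DSS replicate 1. Znrf3 differed by 0.38 ± 0.25 with DSS (adjusted p = 0.627) and by -0.45 ± 0.25 without (adjusted p = 0.933). Averaged over treatments, KO minus WT was 0.11 ± 0.18 for Lrig1 (adjusted p = 0.891), 0.10 ± 0.18 for Nkd1 (adjusted p = 0.904) and -0.54 ± 0.18 for Sox9 (adjusted p = 0.236), so 0 of 8 passed, where 0.677% of all genes did, and 1 of 8, Sox9, had an unadjusted p under 0.05, where 11.0% of all genes had one.

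Whether the DSS change differed between genotypes was tested as an interaction, the DSS change in KO minus that in WT. It was 0.06 ± 0.42 for Lgr5, with a 95% interval of -0.86 to 0.97 (adjusted p = 0.999), and -0.54 ± 0.35 for Axin2, with an interval of -1.30 to 0.21 (adjusted p = 0.982). For Sox9 it was -0.53 ± 0.35 (adjusted p = 0.986), and for Znrf3 0.83 ± 0.35 (adjusted p = 0.875). None of the 8 genes passed, where 0.0769% of all genes did. At an unadjusted p under 0.05 stood 1 of 8, Znrf3, where 5.45% of all genes stood.

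Other genes of the crypt base and of the WNT pathway were looked at in lists, to set the 9 genes beside their surroundings. Of 17 other crypt base genes tested, 13 had a DSS difference below 0 averaged over genotypes, with a median of -0.29, while the median of all genes tested was -0.04 and 56.5% of them lay below 0. Cdca7, a nuclear protein of dividing cells, fell by 0.89 on the log2 scale (adjusted p = 0.0173), and the adhesion receptor Cd44 fell by 0.99 (adjusted p = 0.0486). Igfbp4, a secreted binding protein of insulin-like growth factors that fibroblasts also make, rose by 1.86 (adjusted p = 0.000399). In KO alone none of the 17 passed. In WT alone Igfbp4 rose by 2.24 (adjusted p = 0.00163) and Fstl1, a secreted glycoprotein of mesenchyme, by 1.22 (adjusted p = 0.027). The fibroblast list moved with them, with 5 of 9 genes higher in KO and 8 of 9 in WT, and its part was not tested.

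Of 17 other WNT targets, 12 lay below 0 with a median of -0.40, and Cd44 was the only one to pass. Cd44, Ephb3, Slc12a2 and Tnfrsf19 are also on the crypt base list, so the counts of the 2 lists are not separate observations. The growth regulator Myc, named after its values were seen, had a DSS difference of -0.40 ± 0.18 (adjusted p = 0.26). No gene of this list passed in KO or WT alone, and 7 of its 22 genes with a row were not above background on any array.

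Receptors and the core machinery gave few calls. Of 16 WNT receptors none passed averaged over genotypes, with a median of 0.12, and in WT the receptor tyrosine kinase Ror1 rose by 1.01 (adjusted p = 0.0276). Lgr4, the R-spondin receptor related to Lgr5 and named after its values were seen, was at 14.95 and 15.07 in KO with DSS and at 14.65 and 14.62 in untreated KO, with 15.02 and 15.34 in WT with DSS and 14.75 and 14.74 in untreated WT. Its DSS arrays were all higher than its untreated arrays, by 0.40 ± 0.16 (adjusted p = 0.202). None of 21 genes of the destruction complex and its effectors passed in either genotype or in the average, where their median was -0.05.

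Several secreted inhibitors of the pathway were higher with DSS. Of 5 secreted WNT inhibitors tested, 3 rose averaged over genotypes, with a list median of 0.85. They were Sfrp1, which binds WNT ligands (2.86, adjusted p = 3.18e-05), Dkk3 (1.32, adjusted p = 0.000831) and Sfrp2 (0.85, adjusted p = 0.0173). Sfrp1 had signals of 11.33 and 10.19 in KO with DSS, against 8.45 and 8.22 in untreated KO, and in DSS-treated WT it had 9.90 and 9.93, against 6.70 and 6.53 in untreated WT. Averaged over treatments Sfrp1 was also higher in KO than in WT (1.28, adjusted p = 0.032), the only gene of the list to pass there. The R-spondin Rspo3, a ligand of Lgr5, was not above background in untreated WT. Its log2 difference with DSS in WT was 1.67 (adjusted p = 0.0214), which rests on those background values. With the untreated values raised to background, the rise was at least 1.05-fold, a bound that was not tested. With DSS, WT replicate 1 (6.32) was above its background of 6.00, while replicate 2 (6.09) was below its background of 6.24. Rspo3 was the only call among 8 ligands tested in WT, and none passed in KO. Of the 14 ligands with a row, 9 were not above background on any array. Stromal cells can make several of these inhibitors and ligands, and stromal markers were also higher with DSS. The ligands as a list moved less than the fibroblast genes, with medians of 0.25 and 2.34 averaged over genotypes. With DSS, averaged over genotypes, 9 of 9 fibroblast, 7 of 7 endothelial and 5 of 5 macrophage and dendritic cell genes rose. Stromal markers also differed by genotype. In KO minus WT averaged over treatments, the median was 0.82 for 9 fibroblast genes (1 passed) and 0.83 for 7 endothelial genes (2 passed). For 8 smooth muscle genes it was 1.60 (none passed). The part of the stromal markers in these results was not tested.

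Many genes of the cell cycle were lower with DSS. Averaged over genotypes 10 of 28 fell and none rose, with a median of -0.84 and all 28 below 0. Ube2c, a ubiquitin-conjugating enzyme of mitosis, fell by 1.48 (adjusted p = 0.0012), the mitotic kinase Plk1 by 1.18 (adjusted p = 0.0035), the kinesin Kif20a by 1.14 (adjusted p = 0.00712) and the cyclin Ccnb2 by 0.92 (adjusted p = 0.00725). In KO none passed, where the median was -0.49 and 27 of 28 lay below 0, as did 55.1% of all genes, and in WT 9 of 28 fell. The 2 KO arrays with DSS differed here, with list means of 8.57 and 9.44, against 9.51 and 9.62 in untreated KO. In WT the means were 8.68 and 8.49 with DSS, against 9.60 and 9.52 untreated. The part of the proliferation genes in the Lgr5 and Axin2 results was not tested.

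**Figure D3:**
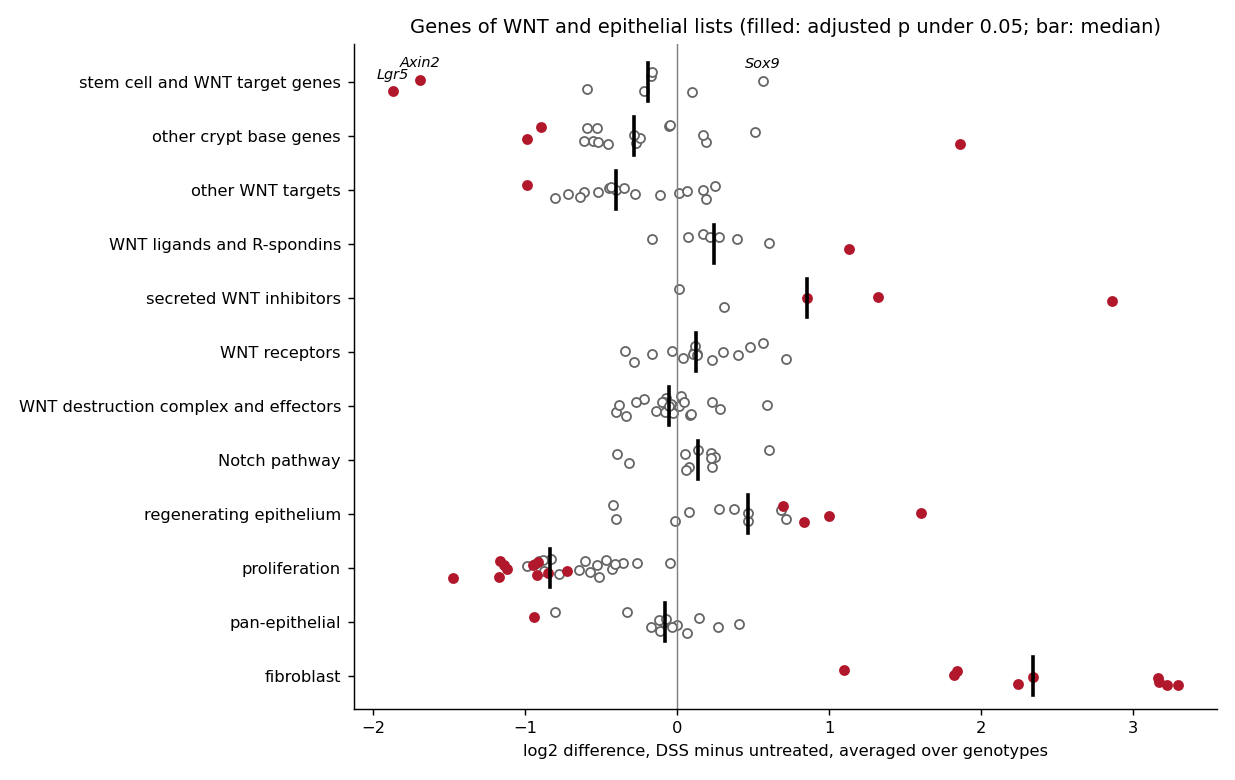
Log2 differences, DSS minus untreated averaged over genotypes, of the tested genes of 12 lists, with 1 point per gene and a bar at each list's median. Filled points have an adjusted p under 0.05. Lgr5 and Axin2 are the lowest points of their list, proliferation genes lie below 0, and fibroblast genes and secreted WNT inhibitors lie above 0.

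**Figure D4:**
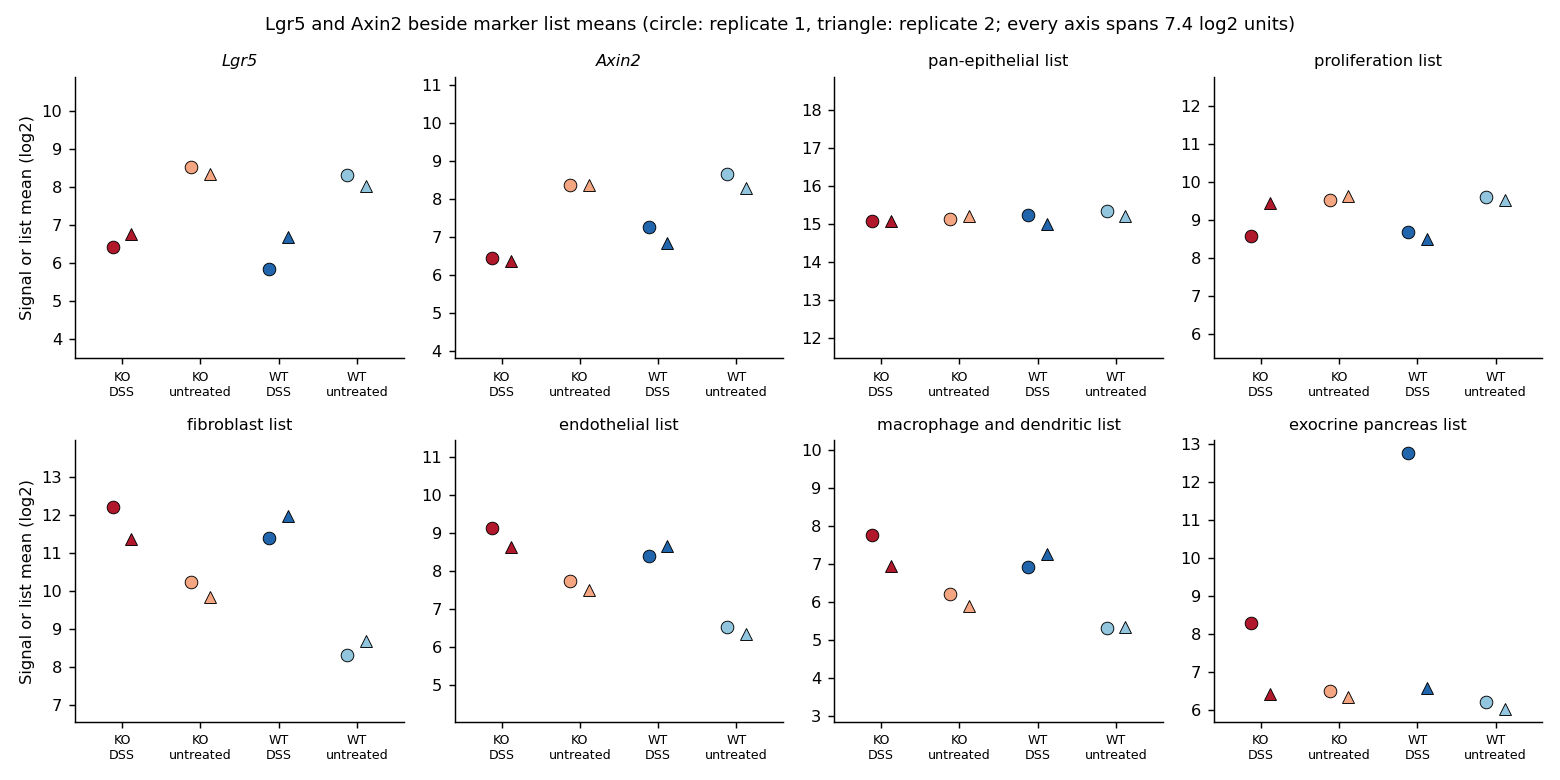
Signal (log2) of Lgr5 and Axin2 and the mean signal of 6 marker lists on each array, with circles for replicate 1 and triangles for replicate 2. The pan-epithelial mean is level over the groups, the fibroblast, endothelial and macrophage means are higher with DSS, and the pancreas mean is high in WT with DSS replicate 1.

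For each gene tested, the 3 genes with the most similar signal over the 8 arrays were listed by Pearson's r. All arrays of a treatment share that treatment, so any gene that moved with DSS resembles any other, and these values are a description. Nearest to Lgr5 were Ddx24 (r = 0.99), an RNA helicase, Sorcs2 (r = 0.98), a sorting receptor, and Cers6 (r = 0.97), a ceramide synthase. Cers6 had signals of 13.96 and 13.85 in KO with DSS and 14.32 and 14.30 in untreated KO. In WT its signals were 13.69 and 13.94 with DSS and 14.25 and 14.25 untreated. Its DSS difference did not pass in KO (adjusted p = 0.644), in WT (adjusted p = 0.391) or averaged over genotypes (adjusted p = 0.169). Neither Ddx24 (adjusted p = 0.275) nor Sorcs2 (adjusted p = 0.153) passed in that average. Nearest to Axin2 were 3 genes of transport and the brush border, Abcg2 (r = 0.99), a xenobiotic exporter, Slc10a2 (r = 0.98), the bile acid importer, and Tmigd1 (r = 0.98), a membrane protein of mature enterocytes. The number of genes with an r over 0.9 was 167 for Smoc2, 104 for Axin2, 78 for Lgr5, 26 for Sox9, 18 for Znrf3, 17 for Nkd1, 14 for Notum and 12 for Lrig1. Smoc2 and Notum were not above background on any array, so their counts describe background signals. The nearest to Sox9 was Gpc4 (r = 0.98), a cell surface proteoglycan, and the nearest to Znrf3 was Exoc8 (r = 0.94), a subunit of the exocyst.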

How the data were processed

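RNA of colon epithelial cells was measured on 8 arrays, 2 in each of 4 groups taken from the sample titles. The authors made the deposited log2 signals with Affymetrix Expression Console, per the submitters' processing notes. No version, normalization, background correction or genome build is given in the sources used here. Of 28846 rows, 6640 were controls; 19572 had 1 gene symbol, giving 19505 genes (55 had more than 1 row, and the brightest on average was used). The lowest 33.3% by mean (below 5.15) were left out and 13003 genes tested. The test was limma 3.58.1 (R 4.3.3), with a mean for each of the 4 groups and all 8 arrays in the fit (two-sided, empirical Bayes, Benjamini-Hochberg over all genes), with 7 comparisons. The number of arrays limits the precision, and 2 arrays against 2 cannot give an exact permutation p below 0.333. Genes and lists were chosen with earlier results of these data known: all 10 genes in each comparison, up to 4 list genes past the threshold by smallest p, and the 3 genes most similar to each member. The fit was tested on simulated data. Alternatives covered the filter, 3 scalings, moderation, a replicate block, the arrays in the fit and each array left out. Same-numbered replicates did not deviate together over all the groups (r between -0.25 and 0.28 over genes), so the numbers were not taken as pairs. The highest r was that of untreated WT and WT with DSS. Promoters came from RefSeq, GRCm38.p6.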

Additional observations from a re-analysis of the deposited data

Results flagged for a closer look

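Znrf3 had DSS differences of opposite sign in the 2 genotypes, and neither passed (adjusted p = 0.844 in KO and 0.284 in WT). Every DSS array was higher than every untreated array in KO, and every DSS array was lower in WT. In KO the margin was narrow, with 8.28 in DSS replicate 2 against 8.26 in untreated replicate 2. Of all genes, 16.8% were higher in this way in KO and 24.1% lower in WT. The share that did both was not counted. The DSS change in KO minus that in WT was 0.83 ± 0.35 on the log2 scale, which did not pass (adjusted p = 0.875, unadjusted p = 0.0376). It lay between 0.43 and 1.03 under the other settings and passed under none of them.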

How the results depend on the processing

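The number of genes of the set that passed was between 0 and 2 in KO and between 0 and 2 in WT with 1 array left out, against 2 in each fit of all arrays; it was 1 in KO in a fit of its 4 arrays alone, which has fewer samples. All calls of Lgr5 and Axin2 kept their direction. With the replicate block the count was 2 in KO, 2 in WT and 2 in the average, and no call of the set changed; with the KO DSS numbers crossed, as their deviations ran against each other (r = -0.15), it was 2 in KO, an alternative chosen after seeing the data, as was leaving out both arrays with pancreatic transcripts. Differences that did not pass changed sign in places. For Lgr5 the interaction ran from -0.36 to 0.48 with 1 array left out and was -0.0227 after quantile normalization and -0.20 without the pancreatic arrays, and KO against WT with DSS ran from -0.10 to 0.74. Axin2 between untreated KO and WT ran from -0.28 to 0.10 and was 0.0122 centred on the epithelial list. Znrf3 between KO and WT with DSS was -0.0182 without the pancreatic arrays. KO minus WT averaged over treatments ran from -0.0238 to 0.25 for Lrig1 and from -0.0304 to 0.23 for Nkd1 (-0.10 without the pancreatic arrays), and the averaged DSS difference of Nkd1 from -0.0303 to 0.23. Their cause was not tested. Counts over all genes moved more: 121 passed in KO, against 14 to 297, 525 in WT, against 215 to 988, and 718 in the average, against 396 to 1054. Those higher and lower were 70 and 51 in KO, against 63 and 29 centred on the epithelial list, 379 and 146 in WT, against 483 and 86, and 451 and 267 in the average, against 586 and 169 there and 392 and 400 with medians set equal. Between KO and WT, 46 passed with DSS, against 24 to 215, 51 untreated, against 3 to 252, 88 in the average, against 28 to 362, and 10 in the interaction, against 5 to 36.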

Other observations

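Genes that rise in regenerating epithelium were higher with DSS in part. Averaged over genotypes 4 of 14 rose and none fell, with a median of 0.47, while the median of all genes was -0.04. They were the matricellular gene Ccn2 (1.61, adjusted p = 0.000685), the annexin Anxa1 (0.84, adjusted p = 0.0315), the alarmin Il33 (0.70, adjusted p = 0.0334) and the growth factor Ereg (0.998, adjusted p = 0.0456). In KO 1 of 14 rose, Ccn2 (1.45, adjusted p = 0.0432), and in WT 4 of 14. Il33 had signals of 6.30 and 6.75 in KO with DSS and 6.49 and 6.50 in untreated KO, against 7.73 and 7.75 in WT with DSS and 6.49 and 6.24 in untreated WT. No gene of this list passed the interaction test. All 9 fibroblast markers tested rose in the same average, and their part in these values was not tested.

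Of 11 Notch pathway genes, Dll4, a Notch ligand of secretory cells and vessels, rose in WT (1.29, adjusted p = 0.0425), and none passed in KO or in the average. None of 9 goblet and deep crypt secretory genes passed in any of these 3 comparisons, and of 5 enteroendocrine genes the peptide hormone gene Pyy rose in the average (0.77, adjusted p = 0.0254).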
